A study of Mus musculus with 4 samples.

Results

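The 10 genes described here encode proteins tied to messenger RNA decay: Zfp36, Zfp36l1, Zfp36l2, Zc3h12a, Zc3h12d, Rc3h1, Rc3h2, Pnrc1, Pnrc2 and Upf1. They were taken by name, out of 22180 genes that the platform annotation pairs with a probe set of 1 symbol, and all 10 were measured. Where a gene had several probe sets, the probe set was chosen by its mean level over all 4 arrays (the brightest), which bore on Zfp36l1 alone, since the other 9 genes have 1 probe set each. That mean is the only measured value the choice used, and it takes no account of genotype.

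Naive CD4+ T cells of TACI-/- mice were set against the same cells of wild-type (WT) mice, all on the C57BL/6 strain. TACI, the product of Tnfrsf13b, is a receptor for the cytokines BAFF and APRIL. Cells with CD62L high, CD44 low and no CD25 were sorted from pooled spleen and lymph nodes and given no treatment that the labels name. Each genotype had 2 biological replicates, 1 Affymetrix Mouse Gene 2.0 ST array each. The design of the targeted allele, the number of mice in a pool and their age are not given in the sources used here.

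Most proteins of this set act at the untranslated regions of messenger RNAs. The ZFP36 proteins are zinc finger proteins that bind AU-rich elements and recruit the CCR4-NOT complex, which removes the poly(A) tail. Regnase-1 (from Zc3h12a) is an endonuclease that cuts stem-loops, the Roquins (from Rc3h1 and Rc3h2) bind related stem-loops, and in T cells the paracaspase MALT1 cleaves both after antigen receptor stimulation. UPF1 is the helicase of nonsense-mediated decay, and in human cells PNRC2 links it to the decapping enzyme.

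The promoters of 4 of the genes are printed because the results turn on them: Pnrc2 and Pnrc1, relatives with differences of opposite sign, Zc3h12a, with the largest positive difference, and Zfp36, which varied between replicates and hardly between genotypes. Each is the RefSeq window (GRCm38.p6) of 250 bases before and 50 after the gene start, read 5′ to 3′ on the gene's own strand, which is the minus strand for all 4. Capitals mark CCAAT boxes (CCAAT), GC boxes (GGGCGG) and the CArG box, searched on both strands.
Pnrc2, chr4:135873797-135874096: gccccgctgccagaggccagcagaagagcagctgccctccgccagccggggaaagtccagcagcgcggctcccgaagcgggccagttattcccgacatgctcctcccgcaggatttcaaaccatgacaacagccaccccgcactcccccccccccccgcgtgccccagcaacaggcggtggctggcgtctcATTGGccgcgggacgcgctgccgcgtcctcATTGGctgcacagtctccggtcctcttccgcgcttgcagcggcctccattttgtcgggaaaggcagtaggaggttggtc
Pnrc1, chr4:33248738-33249037: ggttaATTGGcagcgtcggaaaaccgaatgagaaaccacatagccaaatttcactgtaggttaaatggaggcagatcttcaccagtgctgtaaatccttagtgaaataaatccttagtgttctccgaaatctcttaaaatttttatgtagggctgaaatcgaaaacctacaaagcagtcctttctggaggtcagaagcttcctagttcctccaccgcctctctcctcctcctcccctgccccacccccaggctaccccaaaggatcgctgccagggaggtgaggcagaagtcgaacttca
Zc3h12a, chr4:125127832-125128131: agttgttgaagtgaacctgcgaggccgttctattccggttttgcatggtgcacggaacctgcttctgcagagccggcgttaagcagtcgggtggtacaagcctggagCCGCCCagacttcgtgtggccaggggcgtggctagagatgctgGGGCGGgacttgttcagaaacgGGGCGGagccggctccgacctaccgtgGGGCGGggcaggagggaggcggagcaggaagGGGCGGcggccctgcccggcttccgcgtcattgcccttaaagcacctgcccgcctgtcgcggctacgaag
Zfp36, chr7:28379179-28379478: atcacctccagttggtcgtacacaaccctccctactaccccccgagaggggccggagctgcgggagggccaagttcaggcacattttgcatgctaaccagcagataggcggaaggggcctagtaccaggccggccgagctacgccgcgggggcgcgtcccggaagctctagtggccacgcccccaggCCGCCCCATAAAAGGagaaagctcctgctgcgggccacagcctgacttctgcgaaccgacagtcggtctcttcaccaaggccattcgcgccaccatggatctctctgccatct

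The window of Pnrc2 held 2 CCAAT boxes in reverse orientation, from bases -59 and -29 relative to the start, and that of Pnrc1 held 1, from base -245. Zc3h12a held 5 GC boxes and no CCAAT box. Zfp36 held 1 CArG box from base -58, the kind of site that serum response factor binds, and 1 GC box that shares its last base with it. Among 32851 such windows in the table, 37.4% held a CCAAT box, 35.7% a GC box and 1.63% a CArG box. A window was present for 9 of the 10 genes, and none of them held a CRE (TGACGTCA, in 1.79% of all windows), an NBRE (AAAGGTCA, 1.51%) or the NF-kB motif (4.505%). The pattern TGANTCA, broader than the AP-1 site TGACTCA, was in 7.81% of all windows. It lay in those of Rc3h1, as TGACTCA, and Zfp36l1, as TGATTCA. These are matches of letters and say nothing of binding in these cells.

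All values below are levels in log2 units as deposited, or differences of them, TACI-/- minus WT. Between arrays, 1 log2 unit is a doubling, and levels of different genes are not compared because probe sets differ in brightness. All 10 genes lay above the low-value filter (3.74 to 3.77 log2 units) on every array, with values from 5.94 to 9.82. In the limma fit none of the 10 had a Benjamini-Hochberg adjusted p under 0.05 over 13782 tested genes, which 0.138% of those genes had (0.109% higher and 0.029% lower in TACI-/- cells). An unadjusted limma p under 0.05 was found for 4 of the 10, 3 higher and 1 lower in TACI-/- cells, against 8.78% of all tested genes (4.94% higher, 3.84% lower). A looser criterion, that p with at least a 1.5-fold change, was met by 3 of the 10, 2 higher and 1 lower, against 2.3% of all tested genes (1.42% higher, 0.878% lower). The members were chosen with earlier results of these data known, so these shares describe them and test nothing. In bulk samples such as these, fewer cells of a type and less RNA per cell cannot be told apart. For 5 of the 10, 4 higher and 1 lower, every TACI-/- array lay on one side of every WT array, which held for 38.7% of all tested genes (20.5% higher, 18.1% lower).

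**Figure D1:**
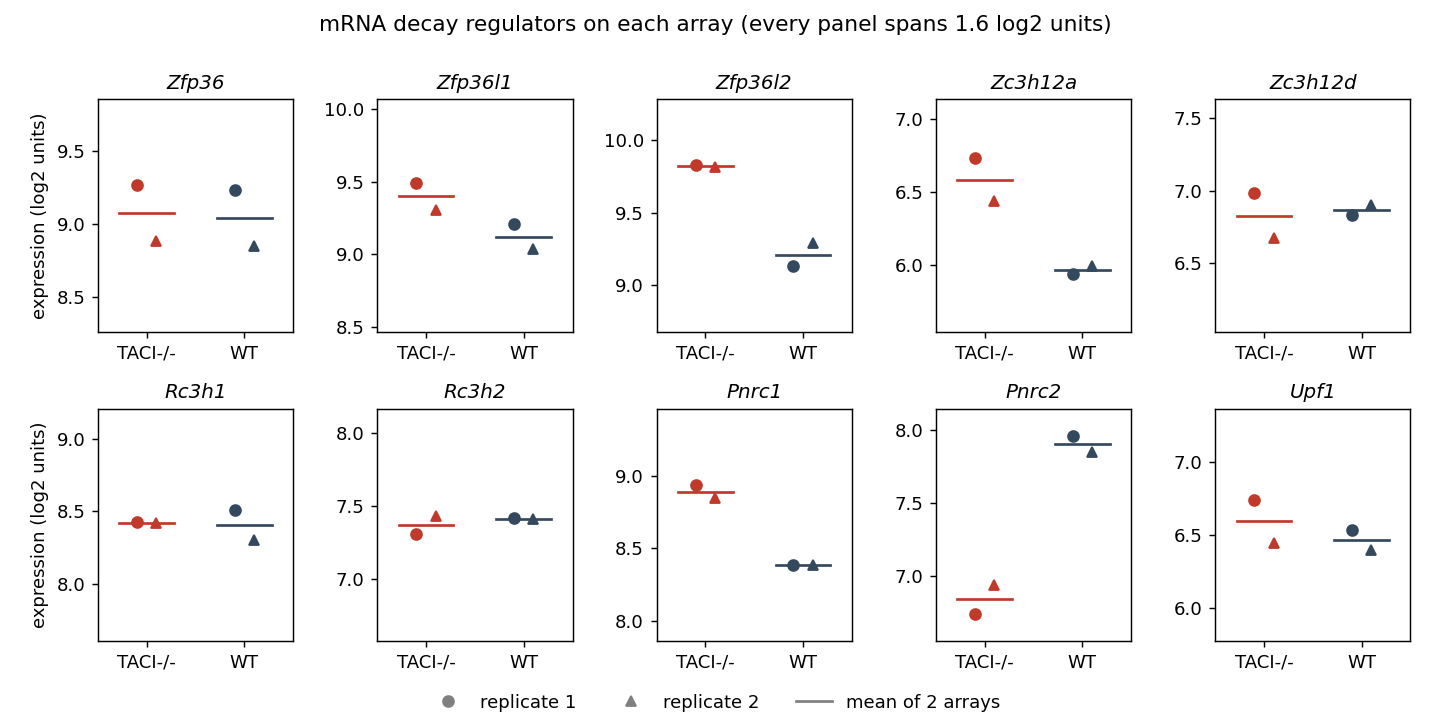
Level of each gene in log2 units (vertical axes, 1.6 units in every panel) on the TACI-/- arrays (red, left) and the WT arrays (dark, right). Circles are replicate 1, triangles replicate 2 and lines the means of 2 arrays; Pnrc2 sits at 6.74 and 6.94 in TACI-/- cells, against 7.96 and 7.85 for WT, while Zfp36 splits by replicate in both genotypes.

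The largest difference of the set belonged to Pnrc2, which encodes a decapping adaptor and was first described as a nuclear receptor coactivator. Pnrc2 was at 6.74 and 6.94 log2 units on the TACI-/- arrays, against 7.96 and 7.85 on the WT arrays. Both TACI-/- arrays lay below both WT arrays, with a gap of 0.92 log2 units between the nearest. Its log2 fold change was -1.07 ± 0.14 (SE, n = 2 per genotype), a level 2.10-fold lower in TACI-/- cells, with a limma adjusted p of 0.0819 and an unadjusted p of 0.00017. Of 13782 tested genes it had the 29th lowest p, and only 12 genes, itself included, had a log2 fold change as low. Its adjusted p fell under 0.05 in 2 of 14 alternative fits, at 0.0343 with a stricter low-value filter and 0.013 with the variance modelled along intensity. Over all 14 alternatives that adjusted p ranged from 0.013 to 0.62, and the log2 fold change from -1.17 to -0.97.

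Pnrc1, the relative of Pnrc2, had a difference of the other sign. In human cells its protein has been tied to the decapping enzyme and the nucleolus. Pnrc1 was at 8.94 and 8.85 log2 units in TACI-/- cells, against 8.39 and 8.39 in WT cells. The genotypes did not overlap, and both pairs of replicates lay within 0.1 log2 units. The log2 fold change was 0.50 ± 0.13 (SE), a 1.42-fold higher level, and did not pass (limma adjusted p = 0.334, unadjusted p = 0.0066).

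Among the ZFP36 proteins the 3 genes differed in their values. Zfp36l2, whose protein restrains the cell cycle of developing thymocytes together with ZFP36L1, was at 9.82 and 9.81 log2 units in TACI-/- cells, against 9.13 and 9.29 in WT cells. Its genotypes were separated by 0.52 log2 units, and the log2 fold change was 0.61 ± 0.13 (SE), a 1.52-fold higher level (limma adjusted p = 0.279, unadjusted p = 0.0031). Zfp36l1 was at 9.49 and 9.31 log2 units in TACI-/- cells, against 9.21 and 9.04 in WT cells. These arrays did not overlap either, but the nearest lay 0.10 log2 units apart, and the log2 fold change of 0.28 ± 0.14 (SE) had an unadjusted limma p of 0.0981. The dimmer probe set of Zfp36l1, which the choice did not use, was at 5.77 and 5.89 log2 units in TACI-/- cells, against 5.61 and 5.67 in WT cells, a log2 fold change of 0.18 of the same sign.

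Zfp36 encodes tristetraprolin, itself the product of an immediate early gene. It was at 9.26 and 8.89 log2 units in TACI-/- cells, against 9.23 and 8.85 in WT cells. The genotypes overlapped fully, and in both of them replicate 1 stood above replicate 2, by 0.379 log2 units in TACI-/- cells and 0.385 in WT cells. The log2 fold change between genotypes was 0.03 ± 0.20 (SE), with a 95% interval from -0.43 to 0.50. Differences within that interval were not excluded with 4 arrays.

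**Figure D2:**
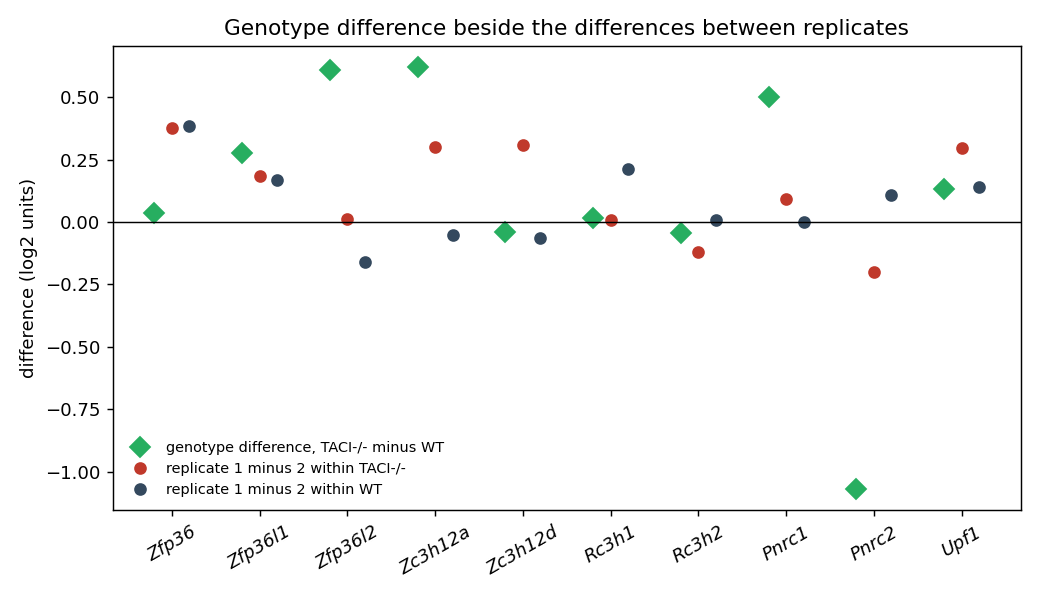
For each gene, the genotype difference (green diamonds, TACI-/- minus WT) beside replicate 1 minus replicate 2 within TACI-/- (red) and within WT (dark), all in log2 units. For Zfp36 both replicate differences (0.379 and 0.385) exceed the genotype difference of 0.03, whereas for Pnrc2, Zfp36l2, Zc3h12a and Pnrc1 the genotype difference is the larger one.

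A replicate 1 value above replicate 2 by over 0.25 log2 units in both genotypes, as in Zfp36, was found for 2.92% of all tested genes and for 6 of the 24 immediate early genes. Jun, an AP-1 subunit, was among them, at 9.57 and 8.96 log2 units in TACI-/- cells, against 9.33 and 8.93 in WT cells. Fos was at 9.42 and 9.01 log2 units in TACI-/- cells, against 8.80 and 8.54 in WT cells, so it had the same order of replicates and separated genotypes. With no limit on its size, replicate 1 above replicate 2 in both genotypes was found for 5 of the 10 genes. These were Zfp36, Zfp36l1, Rc3h1, Pnrc1 and Upf1. It was found for 14 of the 24 immediate early genes and 28.2% of all tested genes. The labels do not say what replicates of the same number share.

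The Regnase genes had unlike values. Zc3h12a was at 6.73 and 6.43 log2 units in TACI-/- cells, against 5.94 and 5.99 in WT cells. Both TACI-/- arrays were above both WT arrays, and the 2 TACI-/- arrays differed more from each other than the 2 WT arrays did. Its log2 fold change of 0.62 ± 0.15 (SE) was the largest positive one of the set, a 1.54-fold higher level (limma adjusted p = 0.318, unadjusted p = 0.0052). Without TACI-/- replicate 1 it was 0.47, under the 1.5-fold limit, which Zfp36l2 also missed, at 0.53, without WT replicate 1. Zc3h12d, which encodes a Regnase relative of lymphocytes, was at 6.98 and 6.67 log2 units in TACI-/- cells, against 6.84 and 6.90 in WT cells. The WT values lay between the TACI-/- ones, and the log2 fold change was -0.04 ± 0.15 (SE), with a 95% interval from -0.41 to 0.33.

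The Roquin genes and Upf1 overlapped between genotypes. Rc3h1, whose protein limits the follicular helper programme through Icos messenger RNA, was at 8.42 and 8.42 log2 units in TACI-/- cells, against 8.51 and 8.30 in WT cells (log2 fold change 0.02 ± 0.14, SE, 95% interval -0.32 to 0.35). Rc3h2, its partly redundant relative, was at 7.31 and 7.43 log2 units in TACI-/- cells, against 7.42 and 7.41 in WT cells (log2 fold change -0.04 ± 0.13, SE, 95% interval -0.36 to 0.27). These intervals, like those of Zfp36 and Zc3h12d, lie within a 1.5-fold change in either direction. Upf1 was at 6.74 and 6.44 log2 units in TACI-/- cells, against 6.53 and 6.39 in WT cells, with replicate 1 the higher in both genotypes. Its log2 fold change was 0.13 ± 0.16 (SE, limma adjusted p = 0.874), with a 95% interval from -0.24 to 0.50.

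**Figure D3:**
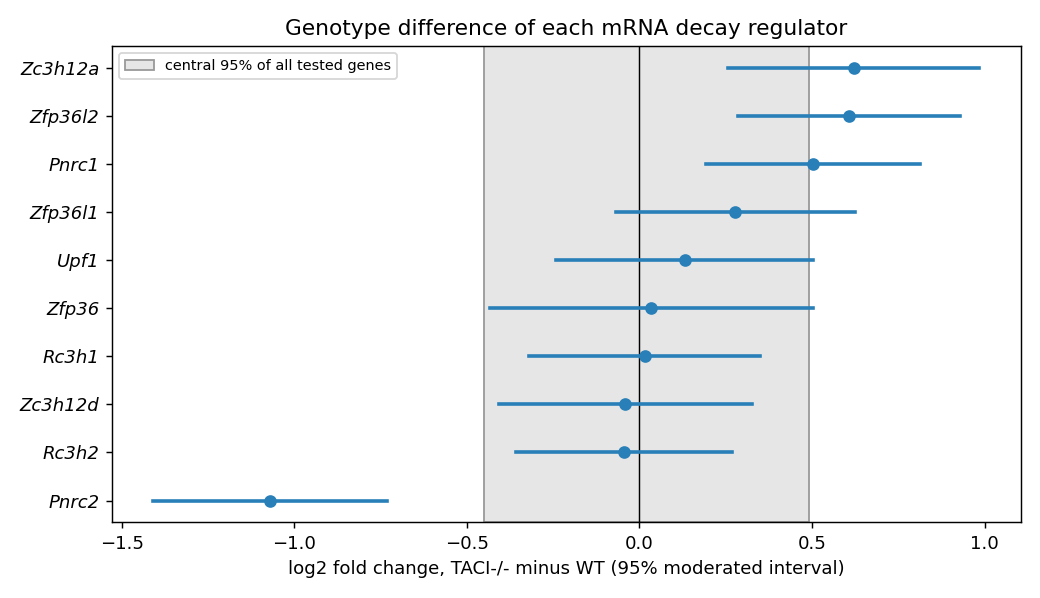
Log2 fold change of each gene, TACI-/- minus WT (points), with its 95% moderated interval (lines), and the range that holds the central 95% of all tested genes (grey band, -0.45 to 0.49). Pnrc2 (-1.07) lies left of the band and Zc3h12a, Zfp36l2 and Pnrc1 (0.62, 0.61 and 0.50) beyond its right edge, while the other 6 points are inside it.

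Of the 10 log2 fold changes 7 were positive and 3 negative, with a median of 0.08, against 0.01 over all tested genes. The genes lie on 8 chromosomes in the RefSeq gene table (GRCm38.p6), with Pnrc1, Pnrc2 and Zc3h12a on chromosome 4 and none on chromosome 11, where Tnfrsf13b lies. In the gene order of that table the 10 tested neighbours of Pnrc2, 5 on each side, included Srsf10, the next gene, with a log2 fold change of -0.31, and Nipal3 with -0.67 (limma adjusted p = 0.576 and 0.29). Of the 25 tested genes on each side, 2 of 50 met the looser criterion as higher (Ubxn11 and Stmn1). A further 2 met it as lower (Cep85 and Nipal3). Over all tested genes 1.42% met it as higher and 0.878% as lower. The median log2 fold change of the 50 was -0.03. These windows of neighbours were chosen after the values were seen.

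**Figure D4:**
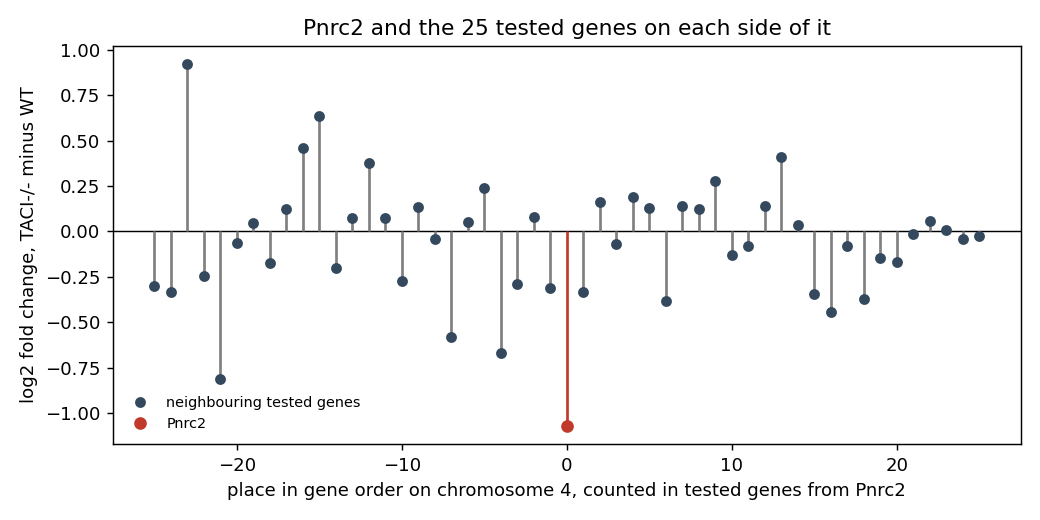
Log2 fold change, TACI-/- minus WT, of Pnrc2 (red, at 0) and of the 25 tested genes on each side of it (dark), against their place in gene order on chromosome 4. The neighbours range from -0.81 to 0.92 around a median of -0.03, and Pnrc2 at -1.07 is below all of them.

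Likeness to a gene was measured as the root mean square difference of mean-centred levels over the 4 arrays, among 12291 tested genes without predicted genes, receptor segments and small RNAs. Nearest to Zc3h12a were Tnnt2 (0.028 log2 units), Tob2 (0.032), Abca1 (0.037), Mex3a (0.045) and Acap3 (0.046). Tob2, an antiproliferative protein that binds the CCR4-NOT deadenylase, was at 6.82 and 6.53 log2 units in TACI-/- cells, against 6.04 and 6.01 in WT cells. Nearest to Pnrc2 were Klrd1 (0.111), Oas1b (0.116), Zfp931 (0.153), Cep85 (0.157) and Apoo (0.158), of which Oas1b fell in TACI-/- cells (log2 fold change -1.17, limma adjusted p = 0.0482). Klrd1, which encodes the NK cell receptor chain CD94, is one of the CD8 T and NK cell markers checked at the end; it was at 4.76 and 5.06 log2 units in TACI-/- cells, against 5.79 and 5.76 in WT cells (log2 fold change -0.87, limma adjusted p = 0.189). Its part in the value of Pnrc2 was not tested. With 4 arrays such likeness is a description of these arrays only.

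The machinery that these regulators recruit was measured in several lists. Either criterion means the adjusted threshold or the looser criterion, not an unadjusted p alone. Of 16 measured genes of the deadenylase list (CCR4-NOT, PAN2-PAN3 and their BTG and TOB partners) none passed after adjustment, 2 met the looser criterion as higher and none as lower, and the median log2 fold change was -0.02. The 2 were Tob1, at 7.0 and 6.85 log2 units in TACI-/- cells, against 6.44 and 5.93 in WT cells (log2 fold change 0.74), and Tob2 (0.65). Btg1, a quiescence gene of lymphocytes, had 0.21 and the ubiquitin ligase subunit Cnot4 -0.19. Of 20 decapping and exonuclease genes none met either criterion, with a median of 0.02; the catalytic subunit gene Dcp2 had -0.23, the scavenger decapping enzyme gene Dcps -0.33, Lsm2 -0.17 and Lsm6 0.20.

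The RNA exosome degrades messenger RNAs from the tail end after the poly(A) tail is lost. Of 15 RNA exosome genes none met either criterion, and their median was 0.01; the ring subunit genes Exosc8 and Exosc7 had -0.38 and -0.36 while Wdr61 and Dis3 had 0.23 and 0.19. Of 11 tested factors of nonsense-mediated decay other than Upf1 none met either criterion, with a median of 0.10; Stau1, of Staufen-mediated decay, had 0.34, Rbm8a 0.26, Smg1 -0.23 and Smg6 0.21. Of 9 other binders of AU-rich elements none met either criterion, with a median of -0.03, and Tia1 and Tial1 had -0.36 and -0.29, Ybx1 0.18 and the stabilising protein gene Elavl1 -0.14.

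Partners and regulators of the set were also measured. Of 7 tested Regnase and Roquin relatives and partners none met either criterion, with a median of 0.08. Arid5a, whose protein opposes Regnase-1 on shared targets, was at 6.44 and 6.48 log2 units in TACI-/- cells, against 5.98 and 6.05 in WT cells, a log2 fold change of 0.44 (limma adjusted p = 0.41). Bcl10 and Zc3h12b had 0.39 and 0.29, and Malt1, the protease gene, 0.08. Of 7 genes of the kinases that phosphorylate tristetraprolin and the 14-3-3 proteins that bind it none met either criterion, with a median of -0.08. Mapkapk2 had 0.30, Mapkapk3 0.14, Ywhah -0.16 and Ywhaz -0.09. With no fold limit, an unadjusted limma p under 0.05 was found for 2 deadenylase genes, 1 nonsense-mediated decay factor and 1 Regnase partner, all higher. For 2 exosome genes and 1 other AU-rich element binder it was found as lower, and for no decapping, kinase or 14-3-3 gene. Over all tested genes 4.94% had it as higher and 3.84% as lower.

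**Figure D5:**
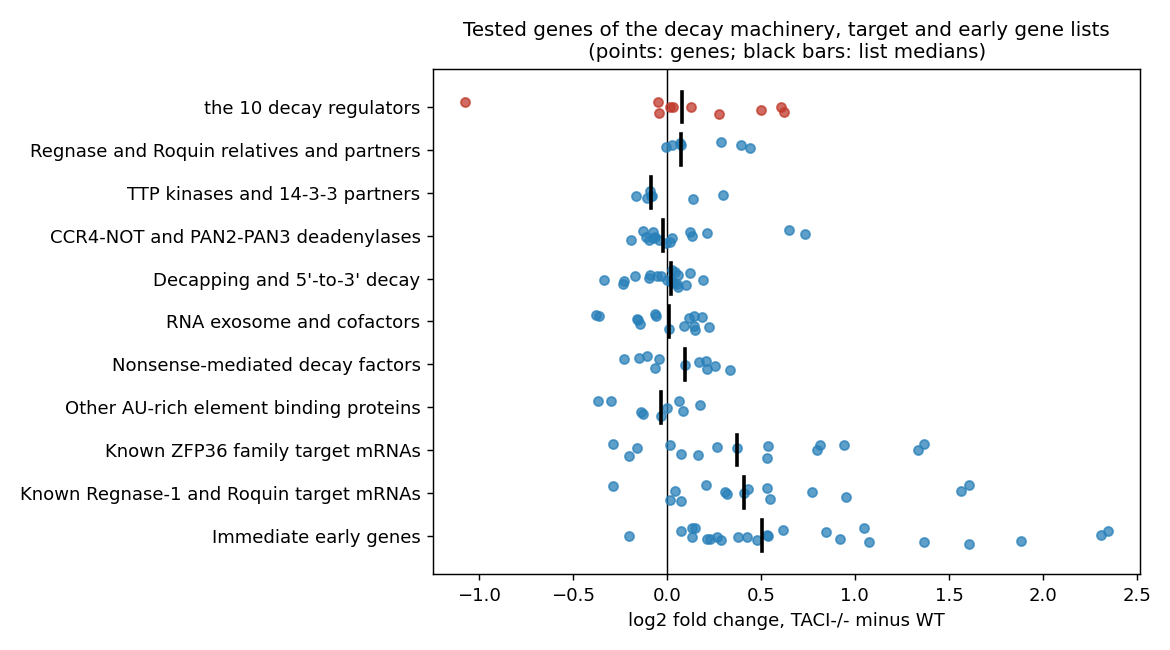
Log2 fold change, TACI-/- minus WT (horizontal axis), of each tested gene of the decay regulators (red) and of the lists of decay machinery, partners, target messenger RNAs and immediate early genes (blue), with list medians as black bars. The medians of the machinery lists lie between -0.08 and 0.10, and those of the 2 target lists and the early genes at 0.38, 0.41 and 0.51.

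Messenger RNAs known as targets of these proteins in one cell type or another had mostly positive log2 fold changes. Of 15 tested ZFP36 family targets 2 rose after adjustment and none fell, 5 met the looser criterion as higher and none as lower, and the median log2 fold change was 0.38 (4 and 0.32 without Ikzf2, which passed the low-value filter through the TACI-/- arrays alone). The 2 were Dusp1, a MAP kinase phosphatase gene, and Plk2, a polo-like kinase gene, with log2 fold changes of 1.37 and 1.34 (limma adjusted p = 0.0288 and 0.0296), while Ikzf2 and Cd69 had 0.94 and 0.82 without passing. Of 15 tested Regnase-1 and Roquin targets 2 rose after adjustment, Irf4 and Ctla4 (1.61 and 1.57, both with limma adjusted p = 0.0246), none fell, 4 met the looser criterion as higher, and the median was 0.41. Tnfrsf9 and Nfkbid had 0.77 and 0.95 without passing. Over all tested genes 0.109% rose after adjustment and 1.42% met the looser criterion as higher. The 2 target lists share Tnf, Cxcl1 and Ier3 among their tested genes, so they are not separate. Ikzf2, Ctla4 and Tnfrsf4 are also in the list of regulatory T cell markers below. Icos, a Roquin target, was at 6.20 and 6.30 log2 units in TACI-/- cells, against 6.06 and 6.03 in WT cells, a log2 fold change of 0.21. The cytokine targets Il2, Il3, Ifng, Il10, Il6 and Il4 lay below the filter and were not tested. Without any 1 array no gene of the table passed after adjustment, these 4 included (721 to 1145 genes then had an unadjusted limma p under 0.05).

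Immediate early genes, among which several of these targets stand, are the list that Zfp36 itself is often placed with. Of 24 tested genes 4 rose after adjustment (Nr4a3, Dusp5, Dusp1 and Nr4a2, log2 fold changes from 1.37 to 2.35), none fell, 10 met the looser criterion as higher, and the median was 0.51. Over all tested genes these shares were 0.109% (rose after adjustment) and 1.42% (looser criterion, higher). The mean level of the early genes was 7.70 and 7.40 log2 units in TACI-/- cells, against 6.89 and 6.74 in WT cells. Its part in the values of the decay regulators was not tested.

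The sort and other cells were checked with marker genes. Tnfrsf13b was below the filter on all 4 arrays, so it does not check the genotype labels. Of 10 tested markers of naive CD4+ T cells none met either criterion, 8 had negative log2 fold changes, and the median was -0.16. For 5 of the 10 every TACI-/- array lay below every WT array, which held for 18.1% of all tested genes. An unadjusted limma p under 0.05 was found for 2, both lower, against 3.84% of all tested genes. Their mean level was 9.85 and 9.79 log2 units in TACI-/- cells, against 10.1 and 9.96 in WT cells. Trat1, a T cell receptor adaptor gene, had -0.56 and Il7r, the interleukin-7 receptor gene, -0.48, both without passing. Cd3d, Cd3e and Cd4 had -0.30, -0.21 and -0.04.

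All 11 measured regulatory T cell markers had positive log2 fold changes, with a median of 0.50. Ctla4 rose, 4 met the looser criterion, and the mean level was 5.67 and 5.56 log2 units in TACI-/- cells, against 4.95 and 4.97 in WT cells. Of these markers Ikzf2, Tigit and Lrrc32 passed the low-value filter through the TACI-/- arrays alone and so had to be higher there. Among the other 8, 2 met the looser criterion (Ctla4 and Il2rb) and the median was 0.47. One of those 8, Foxp3, was at 6.19 and 5.98 log2 units in TACI-/- cells, against 5.63 and 5.38 in WT cells. Its log2 fold change was 0.58. An unadjusted limma p under 0.05 was found for 7 of the 11, all higher. In 9 of the 11 every TACI-/- array lay above every WT array. Over all tested genes 4.94% had that p as higher, 20.5% had arrays so separated and 1.42% met the looser criterion as higher. All 8 tested B cell markers were also positive, with a median of 0.40 and none past the adjusted threshold, and 5 of the 13 measured were below the filter. Ly86, with the largest difference of that list (0.76) and its only looser call, likewise passed through the TACI-/- arrays alone. The other 7 had a median of 0.35, among them H2-Aa, H2-Ab1 and Bank1 with 0.57, 0.53 and 0.44. For 4 of the 8, these and Ly86, the unadjusted limma p was under 0.05. In 6 of the 8 every TACI-/- array lay above every WT array, beside the same shares of all tested genes.

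Among CD8 T and NK cell markers 2 of 4 tested met the looser criterion as lower, Klrd1 (-0.87) and Cd8b1 (-0.65), with a median of -0.29, and Cd8a was below the filter on all arrays. Memory markers had a median of 0.28 (7 tested), with Eomes (0.79) the 1 that met the looser criterion. The 5 tested myeloid markers of 12 had a median of 0.04 over values of both signs, among them Cd68 with 0.71, which met the looser criterion, and Lyz2 with -0.49. The 2 tested platelet markers had 0.45 (Itga2b) and 0.15 (Ppbp, through the TACI-/- arrays alone). None of these last 4 lists had a gene past the adjusted threshold. The part of these markers in the values of the decay regulators was not tested.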

How the data were processed

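Total RNA of sorted naive CD4+ T cells was labelled with biotin and hybridised to 1 array per sample, per the labels' protocols. The authors deposited log2 expression values, 1 for each probe set on each array; the submitters' processing notes name RMA and Partek, with no version or role, and the base 2 is inferred from RMA and the range of 0.94 to 13.2. Such values are normalized between arrays, so a difference is relative to the array as a whole. The 4 arrays fell into 2 genotypes by their titles; no 2 shared over 0.44% identical values.

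Of 41345 probe sets, 23521 had 1 gene symbol, 1814 several and 16010 none in the platform annotation; only the first were named. Testing needed 2 or more arrays at their 40th percentile or above, which left 13782 genes. The test was the two-sided moderated test of limma 3.58.1 (R 4.3.3; lmFit and eBayes) with genotype as its single term, adjusted by Benjamini-Hochberg over all tested genes, at a threshold of 0.05. Intervals and SE are moderated; where nothing says that pools came from separate mice, p-values measure the spread between these arrays, and their number limits the precision.

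The genes and lists were chosen with earlier results of these data known. Named were all 10 genes, and in each list up to 4 genes with the lowest p and any past the threshold. The 5 genes nearest to the members with the largest change in each direction were also named. Icos, Jun, Fos, Foxp3, Cd4, Cd8a, Lrrc32, the cytokines below the filter, and the neighbours of Pnrc2 were chosen after their values were seen. Replicate numbers are shared between genotypes as numbers only, so the fit had no block. List members without a probe set of 1 symbol, such as Cnot1 and Cnot3, were not analysed here. Sequences are RefSeq's.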

Additional observations from a re-analysis of the deposited data

How the results depend on the processing

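The counts of members past each criterion, the log2 fold changes of the members and the calls over all genes were recomputed under other settings. The low-value filter, the scaling, the rule for probe sets and the treatment of variance were changed. A block for replicate number was also tried, and single arrays were left out by turns. Medians and counts of the other gene lists, likeness, differences between replicates and neighbours were computed with the main settings alone. The count of members past the adjusted threshold was 0 in the main fit. It became 1 (Pnrc2) with the filter at the 60th percentile, with the intensity trend and at an adjusted p under 0.1. With every array kept, the count at the looser criterion ranged from 2 to 4. It was 3 in the main fit (2.3% of all tested genes) and 2 with no variance moderation (1.11%). The 4 came from an unadjusted limma p under 0.05 with no fold limit, which 8.78% of all tested genes had. The replicate block left 0 members past the adjusted threshold and 3 at the looser criterion, and changed no call among the members. The differences between replicates 1 and 2 in the 2 genotypes correlated at r = -0.03 across tested genes, which are not independent. Signs turned only in fits without an array, for genes whose genotypes overlapped. Without each array in turn, Zfp36 ranged from -0.16 (without WT replicate 2) to 0.23, with -0.15 without TACI-/- replicate 1. Zc3h12d ranged from -0.19 to 0.11 (without TACI-/- replicate 2), Rc3h1 from -0.091 (without WT replicate 2) to 0.12, Rc3h2 from -0.11 to 0.016 (without TACI-/- replicate 1) and Upf1 from -0.018 (without TACI-/- replicate 1) to 0.28. The signs of Pnrc2, Pnrc1, Zfp36l1, Zfp36l2 and Zc3h12a were kept in all 14 alternatives, most of which could not turn them. The filters, variance models and replicate block leave the log2 fold change as it is. Where an array is left out, arrays that do not overlap fix the sign. Only the scalings and the probe set rule could have changed it, the latter for Zfp36l1 alone. Over all genes, 19 calls in limma became 0 without any 1 array (unadjusted p under 0.05 for 721 to 1145 genes) and with no variance moderation (986 genes), 3 with no low-value filter, 46 with the intensity trend, 45 with the filter at the 60th percentile, 14 at the 20th percentile and 13 with the replicate block. With an array left out, the lone sample of its genotype is assumed to vary like the other genotype.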
